A study of Mus musculus with 32 samples.

Results

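The genes described here are nucleolar factors of ribosome biogenesis, followed in the mouse uterus before and during pregnancy. The list holds 43 gene symbols and was drawn up by function: factors of RNA polymerase I transcription, core proteins of the small nucleolar ribonucleoproteins (snoRNPs), nucleolar chaperones, and assembly factors of the small and large ribosomal subunit. A probe counted if its detection p-value was at most 0.05 on any array. By this rule 36 of the 43 genes were measured, among 13439 genes in all, and for Dkc1, Npm3, Wdr43, Wdr12, Polr1b, Bysl and Noc2l no kept probe carries the symbol.

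Total RNA of the uterus of 32 FVB/N mice was hybridised, 1 mouse per array, to Illumina MouseRef-8 v2 BeadArrays. Groups of 4 mice were non-pregnant (NP) or killed at E6.5 or at E8.5, where E is the embryonic day, and groups of 5 mice were taken on 4 later days, E10.5, E12.5, then E15.5 and finally E17.5. The labels name no transgene and no treatment, and the study gives ages of NP and pregnant mice that overlap. NP mice were taken at random, with no cycle stage given. Pregnant tissue was cut at implantation sites, the embryo and placenta were taken away and the decidua was scraped off with a blade. This dissection is described for pregnant mice only, so against NP uteri the effects of pregnancy and of dissection cannot be told apart. The tissue is a mixture of cell types, and in such bulk RNA fewer cells of a type and less RNA per cell cannot be told apart.

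Ribosomes are assembled in the nucleolus. RNA polymerase I transcribes the long precursor of the ribosomal RNAs (rRNA), box C/D snoRNPs guide its methylation and box H/ACA snoRNPs the isomerisation of uridine to pseudouridine, and sets of assembly factors cut and fold the precursor into a small and a large subunit before export to the cytoplasm. The output of this pathway follows the growth and division of cells, and the transcription factor Myc is a known activator of many of its genes.

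All values are normalised log2 intensities, so a difference of 1 is a doubling of the signal, and a probe's level is compared only with the same probe on other arrays. A difference is the later minus the earlier time point, with its standard error (SE) after ±, and rose or fell means that limma's moderated test gave an adjusted p of at most 0.05 (Benjamini-Hochberg, over all 13439 genes). After a group mean, ± is the SD over mice. For each array the member level is the mean over the 36 genes of the log2 value minus that gene's mean over the 32 arrays.

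Between 13280 and 14357 probes were detected per array. Of 10 smooth muscle markers 9, Acta2 and Myh11 among them, were detected on every array of each group. On 5 arrays there was more RNA of genes typical of placenta or yolk sac than the rest of their group (a marker mean over 0.5 log2 above the group's median): E10.5 replicate 4, E12.5 replicate 3, E15.5 replicate 2, and E17.5 replicates 2 and 5. Main counts are therefore also given without these 5 arrays, a choice made after seeing the data. The rule compares arrays within a group only. The kept E17.5 arrays, replicates 1, 3 and 4, had centred marker means of 0.38, 0.53 and 0.33, against -0.86 to -0.11 at E8.5. Leaving out the 5 arrays thus does not remove such RNA from a comparison of time points.

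The members' level was high in NP and early pregnancy and low late. In NP uteri it was 0.18, 0.67, 0.24 and 0.63, the widest spread of the 7 groups. It ranged over 0.06 to 0.23 at E6.5, 0.16 to 0.28 at E8.5, 0.01 to 0.23 at E10.5, -0.22 to 0.03 at E12.5, -0.35 to -0.29 at E15.5 and -0.42 to -0.31 at E17.5. Every uterus at E15.5 and E17.5 lay below every uterus of the earlier groups. At E10.5, 4 uteri lay between 0.18 and 0.23, and the lowest was replicate 4, the array with the highest placenta and yolk sac level of its group.

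**Figure D1:**
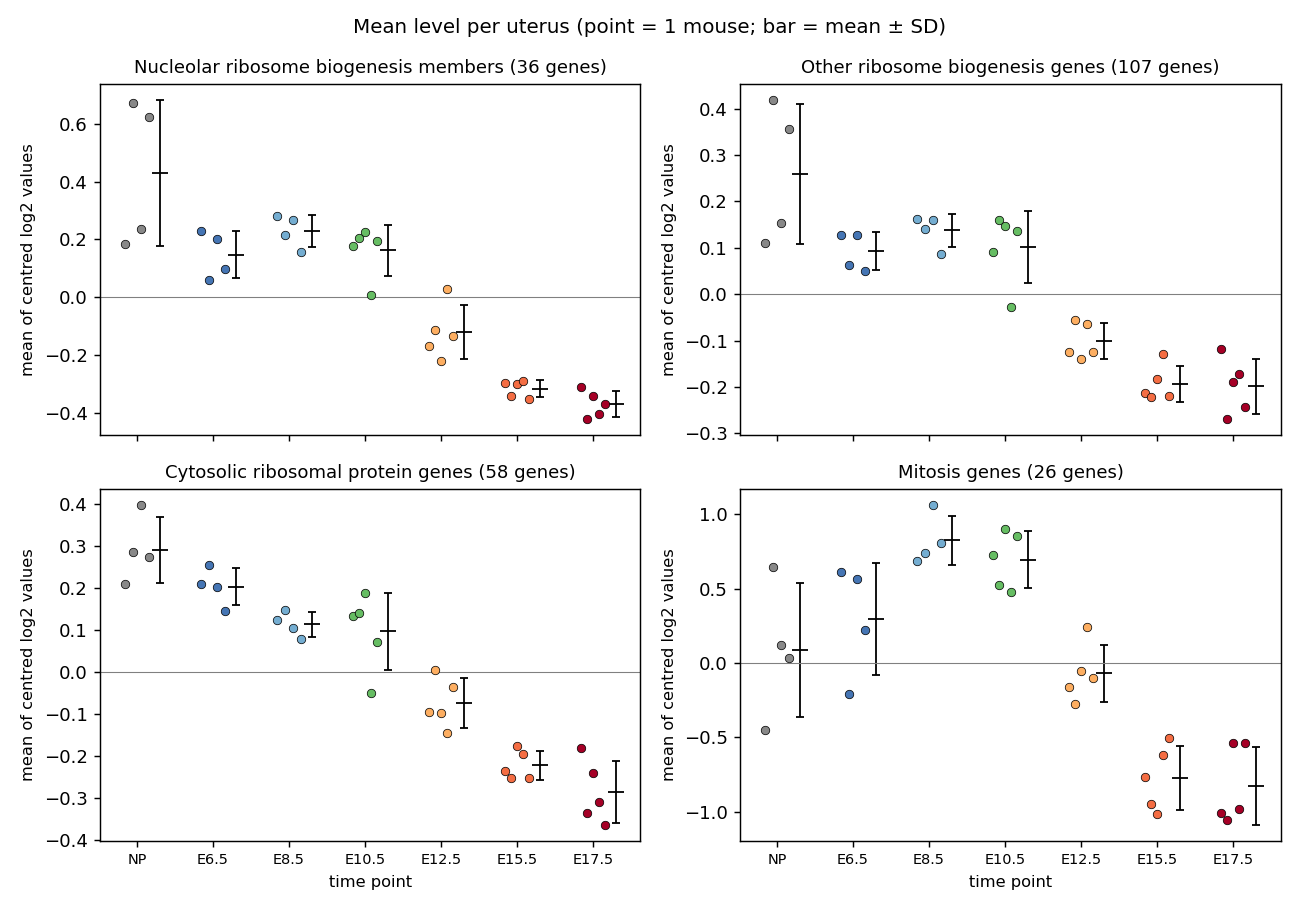
Mean level per uterus (y axis, mean over genes of centred log2 values) at each time point (x axis) for the 36 members, 107 other ribosome biogenesis genes, 58 cytosolic ribosomal protein genes and 26 mitosis genes; points are mice and bars mean ± SD. The members average 0.43 in NP uteri, 0.23 at E8.5 and -0.37 at E17.5.

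Within pregnancy 25 of the 36 members differed between time points by limma's moderated F test, where 37.9% of all genes did. Their means were highest at E8.5 for 16 members, at E6.5 for 10, at E10.5 for 9 and at E15.5 for 1, Ddx56. They were lowest at E17.5 for 21 and at E15.5 for 12. By role, the smallest adjusted p of this test was that of Mybbp1a in rRNA transcription (3.7e-05), Nop58 among box C/D proteins (1.3e-06), Gar1 among box H/ACA proteins (1.6e-07), Npm1 among chaperones (7.6e-04), Heatr1 in the small subunit (4.8e-05) and Gnl3 in the large subunit (1.8e-07). Imp4 also differed (adjusted p = 0.0014), with its lowest mean at E6.5 and its highest at E10.5 on the probe used. On its probe of highest mean, E8.5 against E6.5 differed by 0.40 and did not pass limma's moderated test (adjusted p = 0.080). Over all genes, 28.4% were highest on E6.5 among the pregnant means, 17.2% on E8.5 and 13.1% on E10.5, and 16.3% had their lowest at E15.5 and 19.9% at E17.5. The 10 of 36 members highest at E6.5 are thus near the share of all genes. The median distance between a gene's highest and lowest pregnant mean was 0.73 for the members and 0.49 for all genes.

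The main fall lay between E8.5 and E17.5. Of the 36 members, 22 fell and none rose, with a median difference of -0.58, while 13.6% of all genes fell and 10.4% rose, and the median of all genes was -0.03. In 20 of the 36 members, all among those that fell, every value at E17.5 was below every value at E8.5. This was so for 11.6% of all genes. Without the 5 arrays high in placenta or yolk sac RNA for their group, 19 fell. The members and this comparison were chosen with earlier results of these data known, so the counts describe the list and are no independent evidence for its direction.

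**Figure D2:**
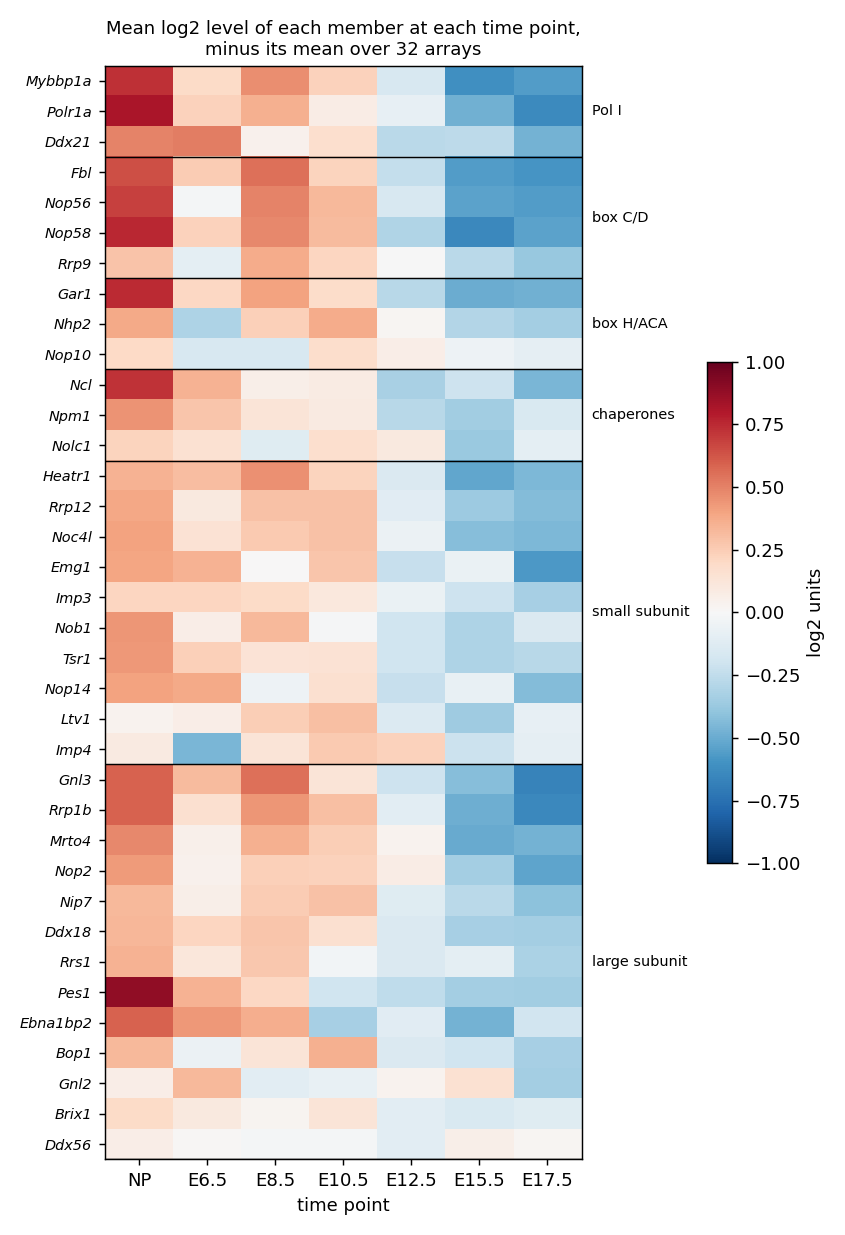
Mean log2 level of each of the 36 members (rows, grouped by role) at each time point (columns) minus the gene's mean over the 32 arrays, on a colour scale in log2 units. Red cells (higher) lie in NP to E10.5 and blue cells (lower) in E12.5 to E17.5 for most rows, with Nop10, Gnl2, Brix1 and Ddx56 the palest.

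Of the genes of rRNA transcription, Mybbp1a and Polr1a fell. Mybbp1a, a nucleolar protein of rRNA transcription and processing, was at 6.5, 6.36, 6.25, 6.32 and 6.08 at E17.5, against 6.95, 7.46, 7.81 and 7.08 at E8.5. Its groups did not overlap, and it was 2.03-fold lower at E17.5 (difference -1.02 ± 0.19, adjusted p = 1.3e-04). Polr1a, the largest and catalytic subunit of RNA polymerase I, was at 6.36, 6.08, 6.59, 6.77 and 6.45 at E17.5, against 7.34, 7.55, 7.58 and 7.28 at E8.5. Here too all late uteri were below all E8.5 uteri (-0.99 ± 0.21, adjusted p = 7.5e-04). Ddx21, an RNA helicase that acts at rRNA genes, had overlapping groups and did not pass (-0.52 ± 0.27, adjusted p = 0.19). Its E17.5 values ran between 8.00 and 9.11, against 8.62 to 9.63 at E8.5.

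All 4 box C/D snoRNP proteins fell, with a median difference of -1.04. Fbl, or fibrillarin, the methyltransferase of these particles, was at 9.64, 9.83, 10.05, 10.39 and 9.86 at E17.5, against 10.93, 11.22, 10.93 and 11.30 at E8.5. The lowest E8.5 uterus was above the highest E17.5 uterus, and the level was 2.20-fold lower at E17.5 (-1.14 ± 0.17, adjusted p = 6.6e-06). Nop58, a scaffold protein of the same particle, was at 9.14, 9.05, 9.37, 9.33 and 9.51 at E17.5, against 10.22, 10.48, 10.26 and 10.25 at E8.5. These groups were likewise apart (-1.02 ± 0.17, adjusted p = 2.7e-05). Its partner Nop56 fell by 1.06 ± 0.18 on the log2 scale (adjusted p = 4.3e-05). Rrp9, a protein of the U3 snoRNP that serves early cleavage of the precursor, fell by 0.75 ± 0.15 (adjusted p = 2.9e-04).

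Of the 3 measured box H/ACA proteins Gar1 and Nhp2 fell and Nop10 did not. Gar1 was at 10.26, 10.10, 10.47, 10.42 and 10.17 at E17.5, against 11.09, 11.06, 11.39 and 11.14 at E8.5. No E17.5 uterus reached the E8.5 range, a 1.85-fold lower level (-0.88 ± 0.12, adjusted p = 1.7e-06). Nhp2 was at 9.63, 9.71, 9.76, 9.86 and 9.80 at E17.5, against 10.32, 10.36, 10.38 and 10.24 at E8.5. The groups were apart, with a difference of -0.57 ± 0.11 (adjusted p = 1.5e-04). Nhp2's second probe, detected on 10 of 32 arrays, differed by 0.03 ± 0.18. Nop10, the small protein that joins Nhp2 to the catalytic subunit, was at 10.89, 10.66, 10.78, 10.09 and 10.49 at E17.5, against 10.76, 10.66, 10.35 and 10.29 at E8.5. Its values at the 2 time points covered each other (0.07 ± 0.20, adjusted p = 0.86).

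None of the 3 measured nucleolar chaperones passed. Npm1, or nucleophosmin, a chaperone and export factor of ribosomal particles, was at 12.83, 12.55, 12.58, 12.48 and 12.59 at E17.5, against 12.86, 12.82, 12.83 and 13.04 at E8.5. One E17.5 uterus lay within the E8.5 range and 4 lay below it (-0.28 ± 0.13, adjusted p = 0.12). By the F test Npm1 nonetheless differed over pregnancy (adjusted p = 7.6e-04), with its highest mean at E6.5 (13.04 ± 0.15, SD, n = 4) and its lowest at E15.5 (12.41 ± 0.11, SD, n = 5). Ncl, or nucleolin, which binds nascent precursor rRNA, was at 8.37, 7.46, 7.61, 7.05 and 7.31 at E17.5, against 8.55, 7.96, 8.09 and 7.71 at E8.5. Replicate 1 at E17.5 stood above 3 of the 4 E8.5 uteri (-0.52 ± 0.24, adjusted p = 0.13). Without that array Ncl passed (-0.72, adjusted p = 0.024), as it did on its other probe (-0.54, adjusted p = 0.0099). Replicate 1 comes first of its group in the deposited column order at both E8.5 and E17.5, and had the highest Ncl value of each. Leaving it out at E17.5 only thus unbalances the order between the groups. Nolc1, a chaperone of snoRNPs, was detected on 17 arrays and on none of the 5 at E15.5, where it was not well above background, and it differed by 0.02 ± 0.24 (adjusted p = 0.97).

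Of 10 small subunit factors 5 fell. Heatr1, a large scaffold protein of the early small subunit particle, was at 7.47, 7.61, 7.41, 7.81 and 7.44 at E17.5, against 8.34, 8.5, 8.29 and 8.65 at E8.5. The groups were apart by more than their own width (-0.90 ± 0.18, adjusted p = 2.8e-04). Imp3, which in yeast helps the U3 RNA pair with the precursor, was at 10.54, 10.53, 10.64, 10.86 and 10.56 at E17.5, against 11.15, 11.07, 11.10 and 11.31 at E8.5. All E17.5 uteri were lower (-0.53 ± 0.10, adjusted p = 1.8e-04). Rrp12 and Noc4l, in yeast factors of particle maturation and export, differed by -0.73 and -0.71, and Nob1, the nuclease that makes the end of 18S rRNA, by -0.47. On Nob1's other probe the difference was -0.25 and did not pass (adjusted p = 0.15), nor did Nob1 pass without background correction (-0.19, adjusted p = 0.11). Emg1 (a methyltransferase of 18S rRNA), Tsr1 and Ltv1 (late factors of the small subunit), Nop14 and Imp4 (early factors) did not pass. In the order Emg1, Tsr1, Nop14, Ltv1 and Imp4 they had differences of -0.58, -0.41, -0.39, -0.33 and -0.22.

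Of 13 large subunit factors 9 fell. Gnl3, or nucleostemin, a nucleolar GTPase, had the largest difference of the 36 members (-1.22 ± 0.14, 2.33-fold lower, adjusted p = 1.6e-07). It was at 5.71, 6.06, 6.44, 6.13 and 5.88 at E17.5, against 7.30, 7.31, 7.30 and 7.14 at E8.5. The E8.5 uteri were nearly alike, and the highest E17.5 uterus was below all of them; on its other probe Gnl3 differed by -0.82 ± 0.12. Rrp1b, a nucleolar protein of large subunit processing, was at 7.97, 7.56, 8.16, 8.23 and 7.86 at E17.5, against 8.94, 8.93, 9.15 and 9.14 at E8.5. No value was shared between the groups (-1.08 ± 0.15, adjusted p = 1.5e-06). Mrto4, whose yeast counterpart holds the place of a protein of the ribosome stalk, was at 7.49, 7.55, 7.67, 7.93 and 7.76 at E17.5, against 8.32, 8.60, 8.41 and 8.69 at E8.5. It too had separate groups (-0.83 ± 0.18, adjusted p = 8.0e-04).

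The other large subunit factors moved less. Nop2, a methyltransferase of 28S rRNA, and Nip7, Ddx18 and Pes1, assembly factors of the large subunit, differed by -0.76, -0.67, -0.62 and -0.56, each with separate groups. Rrs1, an assembly factor of the 5S particle, and Ebna1bp2 fell by 0.59 and 0.55 on the log2 scale with overlapping groups. Rrs1 was detected on 1 of 5 arrays at E17.5, against 4 of 4 at E8.5, so its E17.5 level is mostly one not well above background. Their calls were near the threshold (adjusted p = 0.043 and 0.031) and were lost with cyclic loess normalisation (adjusted p = 0.063 and 0.071) and on leaving out either of E8.5 replicates 1 and 4 or E17.5 replicate 1, among others. The call of Pes1 was lost without E8.5 replicate 1 (adjusted p = 0.062) or 3 (adjusted p = 0.060). Without the arrays high in placenta or yolk sac RNA for their group, Pes1, Nop2 and Rrs1 did not pass (adjusted p = 0.051, 0.055 and 0.15). Bop1, a partner of Pes1, had a difference of -0.46, the GTPase Gnl2 of -0.23 and Brix1 of -0.15, none past the test. Ddx56 was detected on 1 of 32 arrays, so its difference of 0.04 is one between values not well above background.

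**Figure D3:**
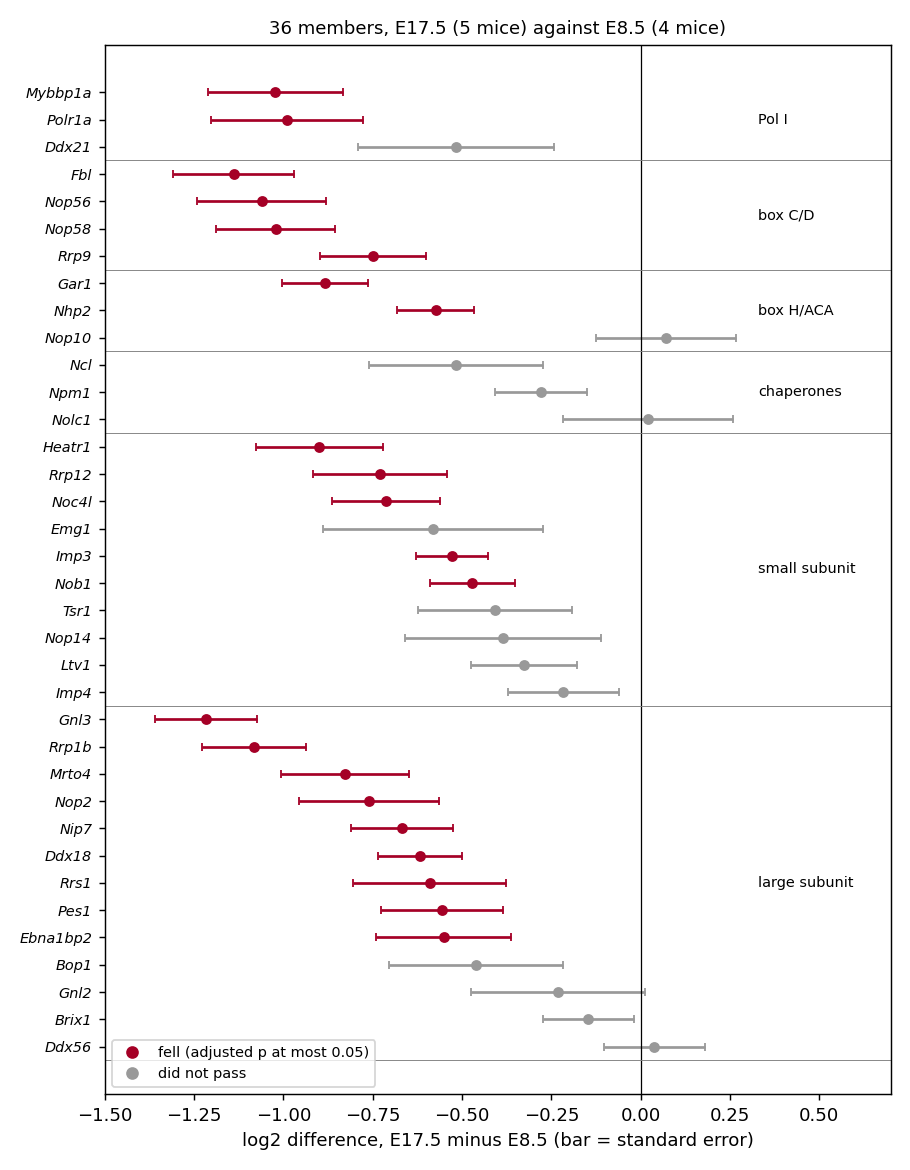
Log2 difference of each of the 36 members, E17.5 minus E8.5 (x axis; points, with bars of 1 standard error), grouped by role, in red where the member fell and grey where it did not pass. Of the points, 33 lie left of 0, and Nop10, Nolc1 and Ddx56 lie at or just right of it.

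**Figure D4:**
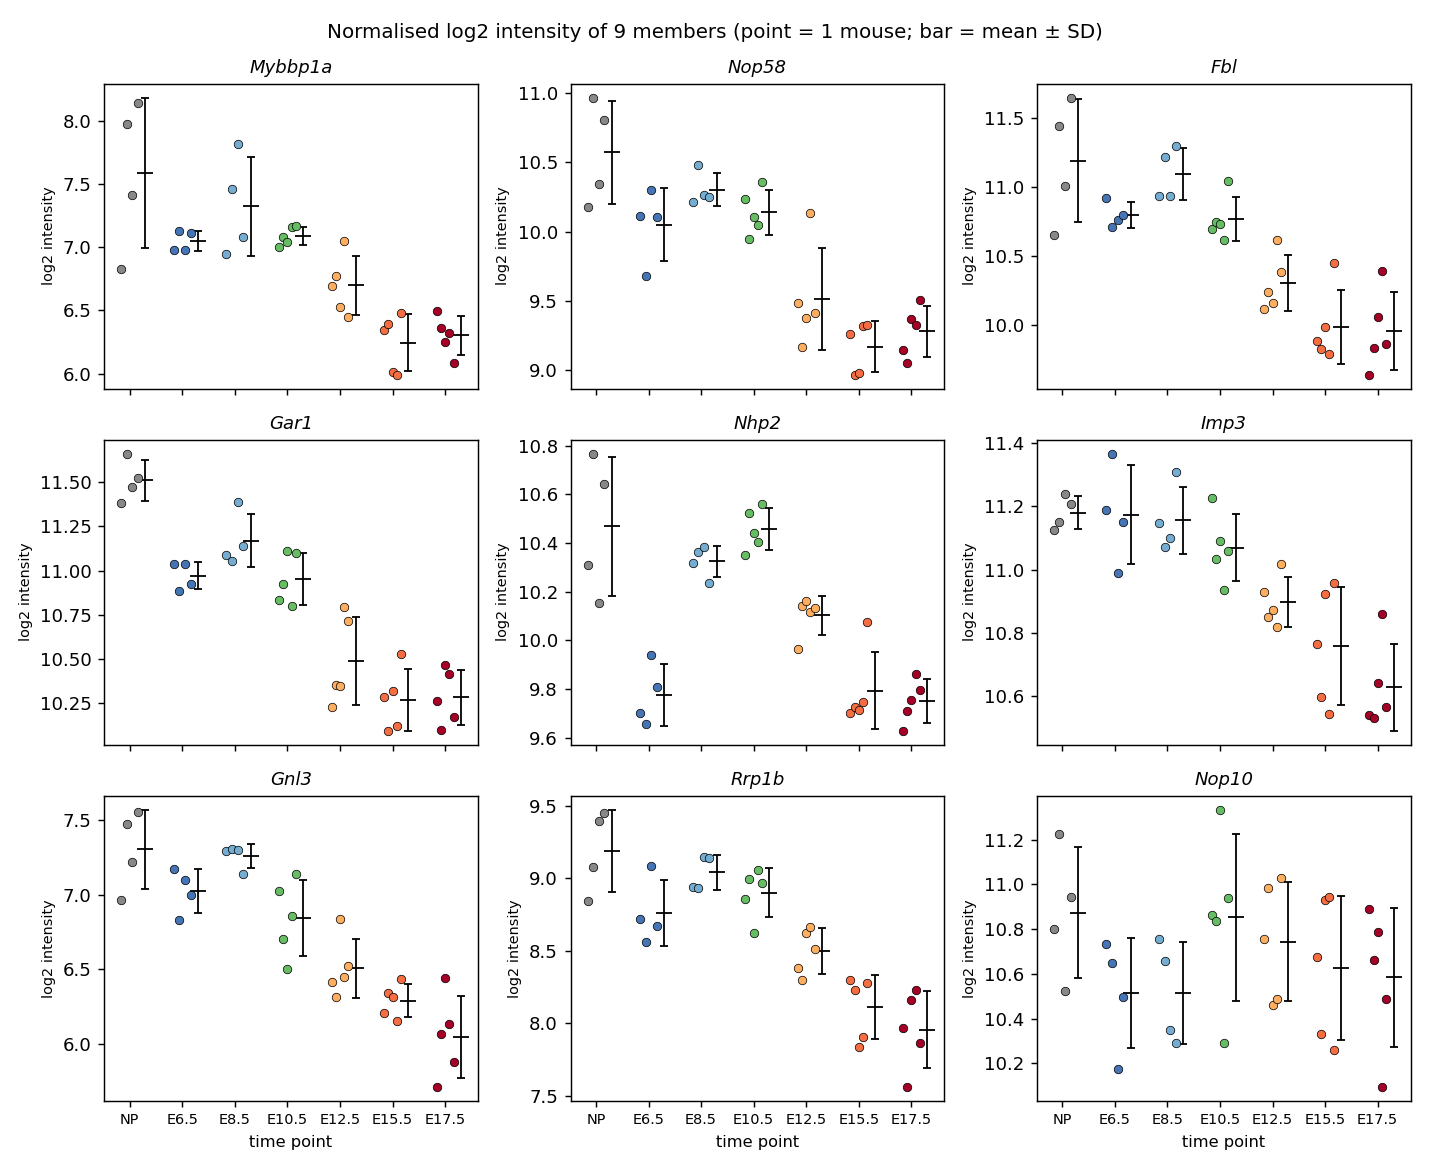
Normalised log2 intensity (y axis, a scale per gene) of 9 members in each mouse (points) by time point (x axis), with mean ± SD. For the 8 members other than Nop10 the E17.5 points lie below the E8.5 points, and Nhp2 has a second low at E6.5.

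By the medians the fall lay mostly at E12.5 and E15.5, and few members passed at any single step. Set against the time point before, the members' median difference was 0.15 for E8.5, then -0.02 for E10.5, -0.35 for E12.5, -0.22 for E15.5 and lastly -0.03 for E17.5. At E12.5 against E10.5, 34 of the 36 members were lower, 2 fell and none rose, where 0.729% of all genes fell and 0.625% rose. At E15.5 against E12.5, 29 were lower and none passed, where 0.558% of all genes fell and 0.871% rose. At E17.5 against E15.5, 23 were lower and none passed, where 0.134% of all genes fell and 0.305% rose. For the last 2 steps Mrto4 (-0.54 ± 0.17, adjusted p = 0.13) and Gnl2 (-0.49 ± 0.23, adjusted p = 0.56) had the smallest adjusted p.

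The members that fell at E12.5 were Gar1 and Nop58. Gar1 was at 10.23, 10.35, 10.35, 10.79 and 10.72 at E12.5, against 10.83, 10.92, 11.11, 10.80 and 11.10 at E10.5. Its groups were apart by a narrow gap (-0.46 ± 0.11, adjusted p = 0.034). Nop58 was at 9.48, 9.17, 9.38, 10.13 and 9.41 at E12.5, against 10.24, 9.95, 10.10, 10.05 and 10.36 at E10.5. Replicate 4 at E12.5 was within the E10.5 range and the other 4 were below it (-0.62 ± 0.16, adjusted p = 0.041). Both calls turned on single arrays: without E10.5 replicate 3 or 5, or E12.5 replicate 1, 2 or 3, the count was 0, without E10.5 replicate 1 or 2 or E12.5 replicate 5 it was 1, and without E12.5 replicate 4 it was 3. It was 0 also without the arrays high in placenta or yolk sac RNA for their group.

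At E8.5 against E6.5, 2 members rose and none fell, where 2.14% of all genes rose and 1.7% fell. Nhp2 was at 10.32, 10.36, 10.38 and 10.24 at E8.5, against 9.70, 9.65, 9.94 and 9.81 at E6.5. All E8.5 uteri were higher (0.55 ± 0.11, adjusted p = 0.0052). Imp4, a U3 snoRNP partner of Imp3, was at 7.92, 8.39, 8.02 and 8.15 at E8.5, against 7.34, 7.14, 7.88 and 7.77 at E6.5. The lowest E8.5 uterus was just above the highest E6.5 uterus (0.59 ± 0.16, adjusted p = 0.039). Imp4's call was lost without E6.5 replicate 1 or 2, or without E8.5 replicate 2, 3 or 4. It was also lost without the 5 arrays high in placenta or yolk sac RNA for their group (adjusted p = 0.054). None of those arrays is from E6.5 or E8.5, and the difference stayed at 0.59. Each of these omissions left a count of 1. The call was lost too on Imp4's probe of highest mean (0.40, adjusted p = 0.080).

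A single member fell at E10.5 against E8.5 and none rose, where 2.37% of all genes fell and 2.25% rose. Ebna1bp2, the counterpart of a yeast large subunit factor, was at 5.27, 5.44, 5.61, 5.18 and 5.68 at E10.5, against 6.22, 6.09, 5.69 and 6.53 at E8.5. The highest E10.5 and the lowest E8.5 values all but met (-0.70 ± 0.19, adjusted p = 0.029). The count was 0 without E8.5 replicate 1, 2 or 4, or without E10.5 replicate 1, 2 or 4. The count was also 0 without the arrays high in placenta or yolk sac RNA for their group. Over its probe with the highest mean the difference was -0.12 (adjusted p = 0.75).

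Against NP uteri most members had lower means at each of the 3 time points compared, E6.5, E8.5 and E17.5. At E17.5, all 36 had a lower mean than in NP and 29 fell, with a median difference of -0.79, while 19.1% of all genes fell and 14.1% rose. In 22 of the 36 every E17.5 value was below every NP value, which was so for 11.9% of all genes. Without the 5 arrays high in placenta or yolk sac RNA for their group, 24 fell. Gar1 was at 10.26, 10.10, 10.47, 10.42 and 10.17 at E17.5, against 11.38, 11.66, 11.47 and 11.52 in NP. The gap between its groups was wider than either (-1.23 ± 0.12, adjusted p = 3.9e-09). Polr1a had the largest of these differences (-1.45 ± 0.21, adjusted p = 3.7e-06), and the 7 members that did not pass were Brix1, Gnl2, Nop10, Nolc1, Imp4, Ltv1 and Ddx56.

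At E6.5 against NP, 33 of the 36 were lower and 4 fell and none rose, where 3.63% of all genes fell and 4.59% rose. Nhp2 was at 9.70, 9.65, 9.94 and 9.81 at E6.5, against 10.31, 10.77, 10.15 and 10.64 in NP. Its groups did not overlap (-0.69 ± 0.11, adjusted p = 9.8e-05). The other 3 were Gar1 (-0.54 ± 0.13, adjusted p = 0.0050), Nop56 (-0.70 ± 0.19, adjusted p = 0.017) and Imp4 (-0.55 ± 0.16, adjusted p = 0.032), of which Nop56 had overlapping groups. On Imp4's probe of highest mean the difference was -0.08 and did not pass (adjusted p = 0.84). The count turned on the NP mice: it was 13 without NP replicate 1, 2 without NP replicate 2 or 4, and 2 without E6.5 replicate 2. In replicates 2 and 4 the member level was 0.67 and 0.63, against 0.18 and 0.24 in replicates 1 and 3.

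At E8.5 against NP, 1 member fell and none rose, where 6.32% of all genes fell and 6.96% rose. In all, 32 of 36 were lower, and the median difference was -0.17. The member that fell was Pes1, a subunit of a large subunit assembly complex with Bop1, at 9.22, 8.91, 9.18 and 8.72 at E8.5, against 9.25, 9.69, 9.66 and 10.15 in NP. Its groups were separated by a hair (-0.68 ± 0.18, adjusted p = 0.0093). The count was 0 without NP replicate 4, 3 without NP replicate 1, and 2 without E8.5 replicate 1 or 3.

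**Figure D5:**
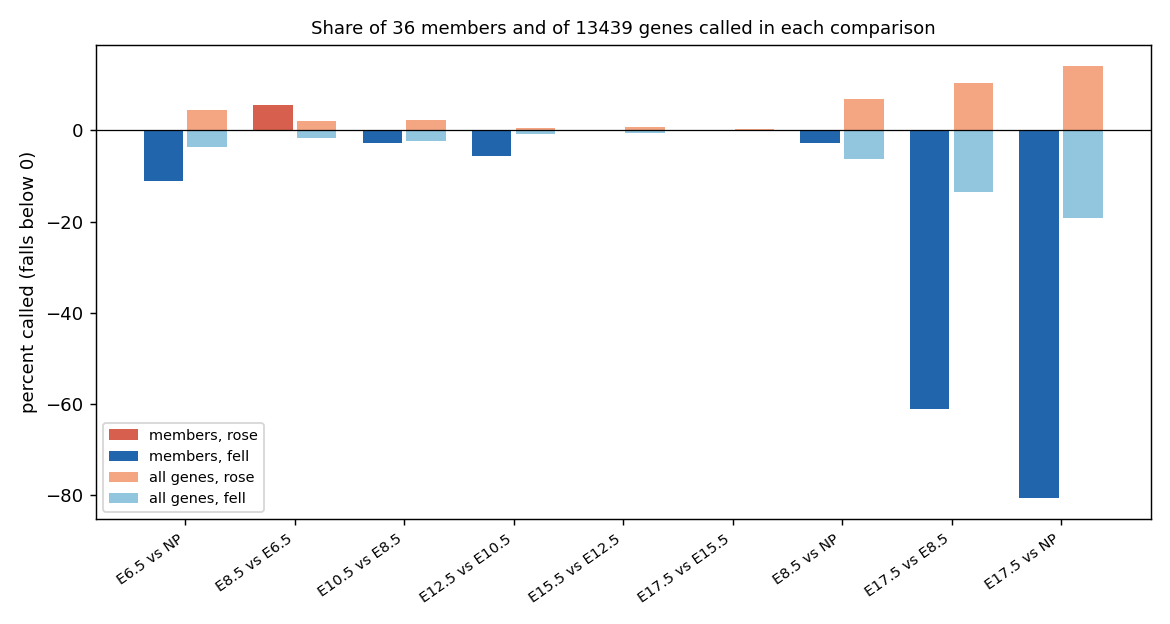
Percent of the 36 members and of all 13439 genes called in each of the 9 comparisons (x axis, later against earlier), with rises above 0 and falls below 0 (y axis). At E17.5 against E8.5 the members' fall bar stands at 22 of 36 genes, against 13.6% of all genes.

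Members did not all vary together from array to array within groups. Among the 630 pairs of members, the correlation of deviations from the group mean over the 32 arrays had a median of 0.20. A set of 6 members, named after their values were seen, shared a pattern: Ncl, Ddx21, Emg1, Nop14, Bop1 and Tsr1 correlated with each other at 0.56 to 0.91 within groups. Their mean was lowest in E17.5 replicate 4 (-0.91) and E15.5 replicate 5 (-0.90), and in E17.5 replicate 1 it was 0.29, above 3 of the 4 E8.5 uteri. Fbl and Mrto4, which correlated with each other at 0.85, correlated with these 6 at -0.64 to -0.23. None of the 6 passed at E17.5 against E8.5. The set has no sharp edge. Outside it, Nop10 correlated at 0.71 with Ncl but 0.39 with Bop1, and Gnl2 at 0.65 with Bop1 but 0.32 with Tsr1. E15.5 replicate 5 also had the fewest detected probes of the 32 arrays (13280). The pattern went with the column order of the deposited intensities, a split seen afterwards. In each group, arrays up to E17.5 replicate 1 in that order had a higher mean of the 6 than all later arrays. At E15.5, replicates 1 to 4 were at -0.08 to 0.13 and the later replicate 5 at -0.90. Groups differ in their share of earlier arrays, so for these 6 time point and order cannot be fully told apart. The part of array quality or batch in this pattern was not tested. The points share arrays and their normalisation, so these correlations are descriptions.

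On their other probes the members mostly moved the same way at E17.5 against E8.5, and less so from one pregnant time point to the next. Of the 36 genes 16 had 21 further probes, and 19 of these had the sign of the probe used at E17.5 against E8.5. The 2 further probes of Polr1a differed by -0.98 ± 0.13 and -0.95 ± 0.19, and those of Mybbp1a by -1.0 ± 0.20 and -0.97 ± 0.14. Emg1's other probe followed the one used from array to array (correlation 0.85 within groups), that of Ncl less so (0.30). Between consecutive pregnant time points, from 12 of 21 further probes (E8.5 against E6.5) to 17 of 21 (E12.5 against E10.5) shared the sign.

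Other genes of the pathway moved less than the members at the median. Members and lists were chosen with earlier results of these data known, so this gap only describes the lists. Of 107 further measured ribosome biogenesis genes, of 129 listed, 42 fell at E17.5 against E8.5 and none rose, with a median difference of -0.36. Among them Polr1e, another subunit of RNA polymerase I, differed by -0.92 ± 0.16 (adjusted p = 5.3e-05), and Ruvbl2, an ATPase that assembles snoRNPs, by -1.04 ± 0.17 (adjusted p = 3.1e-05). The precursor-processing factors Nle1 and Pwp2 differed by -0.78 and -0.69. Of 58 cytosolic ribosomal protein genes 34 fell, with a median of -0.41; Rpl38 had the smallest adjusted p (-1.08 ± 0.14, adjusted p = 6.0e-07). The 107 further genes include 13 of the RNA exosome, which trims rRNA ends, and 6 of these fell, among them Exosc2 (-1.03 ± 0.19). Of 15 translation factors 7 fell, among them Eif5a (-0.77 ± 0.16).

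Cell division genes had larger median differences than the members. At E17.5 against E8.5, 29 of 30 DNA replication genes fell with a median of -1.41, and 25 of 26 mitosis genes with a median of -1.73. Mcm4, a subunit of the replicative helicase, differed by -1.61 ± 0.16, and Birc5, or survivin, of the mitotic chromosome, by -2.89 ± 0.26. At E8.5 against NP, 15 of the 26 mitosis genes rose with a median difference of 0.78, and 5 of the 30 DNA replication genes rose with a median of 0.50. Of the members 1 fell and none rose at this step, and 32 of 36 were lower. Within groups, the members' level over the 32 arrays correlated at 0.72 with the DNA replication and at 0.59 with the mitosis level. Of 9 measured genes of the Myc network 3 fell at E17.5 against E8.5: Myc (-0.84 ± 0.21, adjusted p = 0.0036), Mycl (-0.89 ± 0.29, adjusted p = 0.024) and Mxd3 (-1.12 ± 0.24, adjusted p = 5.7e-04). Myc had a mean of 4.85 at E17.5, against 5.69 at E8.5, and Max, its partner, differed by -0.01. On how many E17.5 arrays the Myc probe was detected is not given here, and its level there may not be well above background. Within groups, the level of the Myc network genes correlated with the members' level at -0.17.

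Markers of other cell types moved between the same time points. Of 11 epithelial markers 10 rose at E17.5 against E8.5 with a median of 3.10, and their mean level ranged over 1.11 to 1.74 at E17.5, against -3.06 to -0.95 at E8.5. At E6.5 against NP 8 of them fell. Of 12 placenta and yolk sac genes 6 rose and 1 fell, with a mean level of 0.33 to 3.43 at E17.5, against -0.86 to -0.11 at E8.5. At E8.5 Afp, Ttr, Apoa4 and Apoa1 were detected on no array. Of 10 markers of natural killer cells 6 fell, with a mean level of -1.23 to 0.40 at E17.5, against 0.50 to 0.84 at E8.5. Of 10 smooth muscle markers only Tagln rose (0.61 ± 0.20), and none fell. Of 10 stromal markers 3 fell and 1 rose, with a median of -0.52, and their mean level ranged over -0.53 to 0.04 at E17.5, against 0.06 to 0.29 at E8.5. Of 7 decidual markers 2 rose and 1 fell, with a mean level of 0.26 to 0.66 at E17.5, against -0.64 to 0.80 at E8.5. Within groups, the members' level over the 32 arrays correlated at -0.50 with the decidual, -0.35 with the placenta and yolk sac, -0.26 with the epithelial, -0.25 with the natural killer cell, 0.23 with the smooth muscle and 0.30 with the stromal level. Their part in the members' fall was not tested.

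Promoters of the members were searched for CACGTG, the E-box letters that dimers of Myc and Max bind; the word reads the same on both strands. RefSeq promoters (build GRCm38.p6, 250 bases before to 50 after the start) were given for 37 of the 43 genes. The word was in 7 of the 37 (18.9%), against 2187 of 27025 genes (8.09%) in the whole table. It was in 3 of 19 measured members that fell at E17.5 against E8.5 (15.8%) and in 3 of 11 that did not pass (27.3%). The 6 windows of measured members are shown because they carry this word in genes on both sides of that test. Each reads 5′ to 3′ along its gene, with the word in capitals.
Nop2: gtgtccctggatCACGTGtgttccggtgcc
Mybbp1a: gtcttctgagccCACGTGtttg
Pes1: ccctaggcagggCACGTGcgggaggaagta
Imp4: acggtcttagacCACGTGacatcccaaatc
Ltv1: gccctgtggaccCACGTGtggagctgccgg
Tsr1: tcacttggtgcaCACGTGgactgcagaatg
Nop2, Mybbp1a and Pes1 fell at E17.5 against E8.5, and Imp4, Ltv1 and Tsr1 did not pass. The windows lie at chr6:125131811-125131840 (plus strand, Nop2), chr11:72441355-72441376 (plus, Mybbp1a), chr11:3963965-3963994 (plus, Pes1), chr1:34439696-34439725 (plus, Imp4), chr10:13193092-13193121 (minus, Ltv1) and chr11:74898092-74898121 (plus, Tsr1). In Nop2 and Imp4 the word begins at positions -60 and -121 from the start, and in the other 4 it lies within the first 50 transcribed bases. A match of letters is a description and does not show binding.

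Over the 32 arrays the genes whose pattern was most like the members' mean were Lsm7 (Pearson's r = 0.96), Gart (0.95), Kars (0.94), Hmgn2, Cdk2ap1, Snora65, Dctd, Dctpp1, Phf5a and Psma5 (0.92 for the last). Lsm7 is a protein of spliceosomal RNA particles, Gart an enzyme of purine synthesis and Kars the lysyl-tRNA synthetase. At E17.5 against E8.5, Lsm7 differed by -0.84 ± 0.14, Gart by -1.06 ± 0.17 and Kars by -1.0 ± 0.12. The probe named for Snora65, an H/ACA small nucleolar RNA, differed by -1.19 ± 0.16. The genes most opposite were Gabarapl1, a protein of autophagosomes (r = -0.95), N4bp2l1, H1f2, H2ac18 and Lamp2, a lysosomal membrane protein (-0.91). Gabarapl1 was at a mean of 11.60 at E17.5, against 10.49 at E8.5, and Lamp2 at 11.54, against 9.97 at E8.5.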

How the data were processed

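The authors deposited linear-scale intensities that had not been normalised (lowest 76.7), a detection p-value beside each, and log2 values made with limma by background correction on control probes, quantile normalisation and log2. The deposited log2 values were used. They differ from values computed anew with neqc (offset 16) by at most 0.0339.

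Probes never detected (p at most 0.05 on no array) were dropped, 5528 of 25697. Of 20169 kept, 18903 carry 1 symbol and 1266 none. Per gene the probe with the highest SD was taken. Of 13439 genes, 13430 matched the RefSeq table. One value is missing, of no member. Detected probes numbered 13869 per array at the median; the number of arrays limits the precision.

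Limma 3.58.1 in R 4.3.3 fitted a mean per group in 1 model of 32 arrays (residual df 25), with 2-sided moderated tests and Benjamini-Hochberg adjustment per comparison. The 6 consecutive comparisons follow the study's design; the other 3 were added. The deposit was checked for duplicate arrays (highest correlation 0.988). The fit was tested on simulated data.

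Members, lists, comparisons and the rule for named genes were chosen with earlier results of these data known. That rule takes, per role, the smallest adjusted p at E17.5 against E8.5 and in the F test, the 3 largest and 3 smallest differences, the smallest adjusted p of each comparison, up to 3 genes per other list, and the 10 most like and 5 most opposite genes. Alternatives covered normalisation, background, filter, probe, model, replicate block and left-out arrays. Scan dates and slides are not given in the sources used here.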

Additional observations from a re-analysis of the deposited data

Results flagged for a closer look

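In 126 checks of a group of 4 or 5 mice (17 members and the member mean, in 7 groups), 7 values stood apart by the gap to the nearest other mouse relative to the group's range; chance gives about 1 in 20. The member mean of E10.5 replicate 4 was 0.00809, with the others at 0.177 to 0.227; this array also had a placenta and yolk sac level of 2.47. Npm1 was at 13.26 in E6.5 replicate 3 (others 12.94 to 12.99) and at 12.93 in E12.5 replicate 4 (others 12.30 to 12.48). Heatr1 was at 8.41 in the same E12.5 replicate 4 (others 7.62 to 7.84). Gnl3 was at 7.14 in E8.5 replicate 4 (others 7.30 to 7.31). Nhp2 was at 9.96 in E12.5 replicate 1 (others 10.12 to 10.16) and at 10.07 in E15.5 replicate 5 (others 9.70 to 9.75).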

How the results depend on the processing

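The counts at E17.5 against E8.5 (22), at E17.5 against NP (29) and in the F test (25) stayed within 1.5 times under all alternatives run. No called value changed sign. The members' median difference, near 0 in both cases, did so at E10.5 against E8.5 with cyclic loess (0.0070, against -0.022 as reported). It also did so at E17.5 against E15.5 with array medians equalised (0.052, against -0.033 as reported). There it was 0.0021 without the 5 arrays high in placenta or yolk sac RNA for their group. On leaving out 1 array the main counts, in the order first given, ranged over 19 to 22, 26 to 30 and 24 to 28. The smaller counts did move. Without background correction they were 9 at E6.5 against NP, 0 at E10.5 against E8.5, 5 at E12.5 against E10.5 and 2 at E8.5 against NP, and the medians at E17.5 against E8.5 and against NP were -0.47 and -0.62. With only the compared groups fitted, they were 2, 0, 0 and 0 in the same order of comparisons. With array medians equalised, 1 member passed at E8.5 against E6.5 and 0 at E12.5 against E10.5. With the probe of highest mean, 1 passed at E8.5 against E6.5 and 0 at E10.5 against E8.5; cyclic loess also gave 0 at E10.5. Without a detection filter 1 passed at E12.5. Without the 5 arrays high in placenta or yolk sac RNA for their group, the counts were 1 at E8.5 against E6.5, 0 at E10.5 and 0 at E12.5. The causes were not tested. Leaving out 1 array gave 2 to 13 at E6.5 against NP (median -0.40 to -0.18), 1 to 2 at E8.5 against E6.5, 0 to 1 at E10.5, 0 to 3 at E12.5, 0 to 1 at E15.5 and 0 to 3 at E8.5 against NP. Same-numbered arrays of different groups correlated at -0.41 to 0.43 in their deviations (27 of 90 pairs over 0.1, and 7 of 32 arrays best with their own number), so the numbers do not pair the mice. Equal numbers fall at unlike places in the deposited column order, so neither this check nor the replicate block tests that order. With the replicate block 2 members passed at E8.5 against NP and Rrs1 at E17.5 against E8.5 did not (adjusted p = 0.058). Rrs1 did not pass there either without background correction (adjusted p = 0.059), with array medians equalised (0.061) or without a detection filter (0.057), nor did Ebna1bp2 with only the compared groups fitted (0.058).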
